A study of Rattus norvegicus with 20 samples.

Results

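Transcripts of 10 genes of the liver's connective tissue were followed in rat liver. The labels give postnatal day 4, without saying whether this was a pup's age or the day a dam was sampled. The genes were the collagen chains Col1a1, Col1a2, Col3a1 and Col5a1, the proteoglycans Dcn and Lum, the matrix proteins Sparc and Postn, and the cytoskeletal genes Des and Acta2. They were chosen by name, as genes known from hepatic stellate cells and their matrix, and every probe set that carries 1 of these symbols alone was used. That gave 14 probe sets of 10 genes, out of 31042 probe sets and 14217 single-symbol genes on the array. Dams of the Wistar Han strain were gavaged daily with corn oil that carried the flame retardant PBDE-47, a polybrominated diphenyl ether, starting on gestation day 6 and ending on postnatal day 4. The 20 arrays form 4 groups of 5: corn oil alone (vehicle), and corn oil with PBDE-47 at 0.1, 15 or 50 mg/kg per day. The labels give every sample as female and as liver, and the RNA came from the left lateral lobe. They tie the dosing to dams without saying whether a liver was a dam's or a pup's, and they name no litter and no separate animal for each array, so p-values reflect only how far these samples spread, which may be technical. The number of arrays limits the precision.

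Hepatic stellate cells are pericytes that lie between hepatocytes and the sinusoidal endothelium and store vitamin A. After injury they can turn into myofibroblasts, which contract and secrete fibrillar collagen, and portal fibroblasts around the bile ducts are another source of such matrix. Desmin is the classical stellate cell filament in the rat, while alpha smooth muscle actin marks the activated cell and vascular smooth muscle. None of these genes belongs to the liver alone: fibroblasts of every organ make fibrillar collagen, decorin and lumican, and desmin is a main filament of skeletal muscle.

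The tissue label was borne out by the hepatocyte list (Alb, Apoa1 and others, 11 genes measured), whose mean log2 value lay between 13.81 and 13.92 on all 20 arrays. Transcripts of skeletal muscle and pancreas were high on some of them. The mean of 39 skeletal muscle genes ran from 4.18 to 7.95 and was over 5 on 8 arrays. These were vehicle replicate 2, replicates 1, 4 and 5 at 0.1 mg/kg, replicate 3 at 15 mg/kg and replicates 1, 3 and 4 at 50 mg/kg. Acta1, skeletal muscle actin, ranged from 2.72 to 12.57. The mean of 17 exocrine pancreas genes ran from 4.24 to 6.67 and was over 5 on 3 arrays, replicate 2 at 0.1 mg/kg and replicates 3 and 5 at 15 mg/kg. Neither mean was over 5 on 10 arrays, of which 4 were vehicle, 1 was at 0.1 mg/kg, 3 were at 15 mg/kg and 2 at 50 mg/kg. Other signals also varied: an erythroid list mean ran from 8.98 to 11.3 and the difference between 3' and 5' beta-actin control probes from 1.22 to 2.43.

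Promoter windows, from 250 bases before to 50 after the RefSeq start on GRCr8, were found for 7 of the 10 genes. Those of 5 are printed because the values below set them apart: Col1a2, Lum and Postn varied together between arrays, Des followed skeletal muscle and Acta2 followed neither. The motifs searched on both strands were TATAAA, the binding letters of nuclear factor Y, which are CCAAT and appear reversed in these windows, and the CArG box bound by serum response factor, also with 1 inner base replaced by G or C. Capitals mark every match. In the order printed, the windows lie at chr4:33518307-33518606 on the plus strand, chr7:34245456-34245755 on the plus strand, chr2:140677811-140678110 on the plus strand, chr9:84299376-84299675 on the plus strand and chr1:241172454-241172753 on the minus strand.
Col1a2: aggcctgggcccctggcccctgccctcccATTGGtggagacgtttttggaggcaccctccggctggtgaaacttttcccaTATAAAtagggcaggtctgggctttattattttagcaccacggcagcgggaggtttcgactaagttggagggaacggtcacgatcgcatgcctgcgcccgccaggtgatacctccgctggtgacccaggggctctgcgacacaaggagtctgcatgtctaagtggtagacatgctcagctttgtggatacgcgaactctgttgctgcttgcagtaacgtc
Lum: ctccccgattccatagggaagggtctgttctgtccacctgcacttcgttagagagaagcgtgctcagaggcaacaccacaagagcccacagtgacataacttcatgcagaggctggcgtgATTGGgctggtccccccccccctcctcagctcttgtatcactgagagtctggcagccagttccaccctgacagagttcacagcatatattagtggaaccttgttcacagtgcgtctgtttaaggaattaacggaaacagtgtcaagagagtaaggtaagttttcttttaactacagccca
Postn: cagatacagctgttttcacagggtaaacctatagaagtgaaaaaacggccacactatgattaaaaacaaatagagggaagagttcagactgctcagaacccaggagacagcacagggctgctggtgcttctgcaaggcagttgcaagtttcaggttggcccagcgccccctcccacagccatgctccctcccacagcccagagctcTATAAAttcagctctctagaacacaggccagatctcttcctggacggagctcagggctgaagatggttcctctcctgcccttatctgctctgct
Des: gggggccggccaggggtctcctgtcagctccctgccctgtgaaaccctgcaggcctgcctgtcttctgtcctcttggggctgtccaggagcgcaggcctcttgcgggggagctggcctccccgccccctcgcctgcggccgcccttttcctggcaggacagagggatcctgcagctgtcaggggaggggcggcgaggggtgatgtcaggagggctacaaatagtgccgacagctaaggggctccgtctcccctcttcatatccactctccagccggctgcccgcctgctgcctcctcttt
Acta2: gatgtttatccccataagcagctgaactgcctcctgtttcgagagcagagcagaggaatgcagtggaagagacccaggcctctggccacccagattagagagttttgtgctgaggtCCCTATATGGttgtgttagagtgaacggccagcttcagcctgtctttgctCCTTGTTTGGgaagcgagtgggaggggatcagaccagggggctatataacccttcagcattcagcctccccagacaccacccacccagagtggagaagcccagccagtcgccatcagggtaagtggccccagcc
TATAAA was found in Col1a2 and Postn and in 14.2% of 33469 rat promoter windows of the same length. CCAAT was found in Col1a2 and Lum and in 37.5% of windows. No exact CArG box was found in the printed windows (1.64% of all windows hold one), and Acta2 held 2 of the relaxed form, which 8.1% of windows hold. Des held none of these letters. The genes that varied together shared no motif of this search across all 3 printed windows. Col5a1 varied with them too, and its window, not printed, held none of these motifs. Nor did the Sparc window, also not printed.

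The first question was whether dose moved these transcripts. None of the 14 probe sets passed the test in any comparison with vehicle (limma, Benjamini-Hochberg adjustment over all probe sets, called under 0.05). At 50 mg/kg 0.934% of all probe sets were called, at 15 mg/kg 0.116% and at 0.1 mg/kg 0%. At an unadjusted p under 0.05 there were 1 of the 14 at 50 mg/kg (13.0% of all probe sets), 0 at 15 mg/kg (12.1%) and 8 at 0.1 mg/kg (6.87%). The estimates were above 0 for 12, 11 and 13 of the 14 at 50, 15 and 0.1 mg/kg. Their median was 0.33, 0.13 and 0.51 log2 units at these doses, beside a median near 0.01 over all probe sets at each. The 3 comparisons share the vehicle arrays, so their estimates are not independent. Nor are the 14 probe sets, which stand for 10 genes. Of the 14, 10 varied together between arrays (median r of 0.87), so these counts weigh less than counts of separate observations. In bulk liver, fewer cells of a type and less RNA per cell cannot be told apart.

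Lum, the keratan sulfate proteoglycan lumican that binds collagen fibrils, had the smallest p of the 10 genes at 50 mg/kg. Its log2 values were 7.65, 9.27, 8.45, 7.85 and 8.47 in vehicle, 9.89, 10.06, 9.30, 9.42 and 9.20 at 0.1 mg/kg, 9.22, 8.46, 9.86, 7.95 and 9.89 at 15 mg/kg, and 9.95, 8.42, 9.76, 10.77 and 9.19 at 50 mg/kg. Vehicle replicate 2, the vehicle array with muscle signal, lay above the lowest array of every dosed group, so no dosed group was separate from vehicle. The difference from vehicle was 1.28 log2 units at 50 mg/kg (SE 0.41, 95% interval 0.43 to 2.13, a 2.42-fold estimate, limma adjusted p = 0.167). It was 0.74 (SE 0.41, adjusted p = 0.481) at 15 mg/kg and 1.24 (SE 0.41, adjusted p = 0.564) at 0.1 mg/kg. Without the 10 arrays over 5 in muscle or pancreas signal the Lum estimate was 0.70 at 50 mg/kg, 0.44 at 15 mg/kg and 1.19 at 0.1 mg/kg, none of them called. That fit keeps 2, 3 and 1 arrays at these doses and 4 vehicle arrays, with the lone array assumed to vary like the others.

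Col1a1 encodes the main chain of type I collagen, the bulk collagen of scar. At its brighter probe set (1370864_at) the log2 values were 8.27, 9.49, 8.66, 8.19 and 8.28 in vehicle, 9.68, 9.98, 9.02, 9.53 and 9.0 at 0.1 mg/kg, 9.03, 8.33, 9.73, 8.04 and 10.03 at 15 mg/kg, and 9.25, 8.93, 9.31, 10.61 and 8.18 at 50 mg/kg. Of the vehicle arrays 4 were low and the one with muscle signal was high, and at 15 and 50 mg/kg low and high arrays stood in the same group. The estimate was 0.68 (SE 0.40, interval -0.16 to 1.52, adjusted p = 0.508) at 50 mg/kg and 0.87 (SE 0.40, adjusted p = 0.716) at 0.1 mg/kg. Without the arrays over 5 the Col1a1 estimate at 50 mg/kg was 0.21. The second Col1a1 probe set (1388116_at) gave 0.60 and 0.90 at these doses, and both sets varied alike between arrays (r = 0.96 over 20 arrays). Col1a2, the partner chain, gave 0.39 and 0.48 at its 2 probe sets at 50 mg/kg, with adjusted p of 0.619 and 0.5.

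Postn encodes periostin, a matricellular protein of activated fibroblasts. Its log2 values were 7.20, 8.88, 8.10, 7.66 and 7.31 in vehicle, 9.25, 9.78, 8.71, 9.14 and 8.22 at 0.1 mg/kg, 8.36, 7.21, 9.33, 7.46 and 9.34 at 15 mg/kg, and 8.91, 7.45, 9.08, 10.37 and 7.24 at 50 mg/kg. The 50 mg/kg group held both the highest array of all and one close to the lowest. The Postn estimate at 50 mg/kg was 0.78 (SE 0.53, adjusted p = 0.577), and it was -0.22 without the arrays over 5. Dcn, decorin, a small proteoglycan that binds collagen and transforming growth factor beta, gave 0.57 (SE 0.38, adjusted p = 0.571) and -0.19 in the same fits. For Col3a1, the type III collagen chain of reticular fibres, the estimate was 0.27 (SE 0.17, adjusted p = 0.551) and -0.05. These estimates rested in part on replicate 4 at 50 mg/kg, and without that array they were 0.34 for Postn and Col1a1, 0.28 for Dcn, 0.14 for Col3a1 and 0.99 for Lum.

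Col5a1, the type V chain that nucleates type I fibrils, was the one gene whose groups were separate at any dose. At 1369955_at the 0.1 mg/kg arrays read 8.34, 8.42, 8.18, 8.28 and 8.10, against 8.01, 8.08, 7.96, 7.95 and 8.0 in vehicle. All 5 dosed arrays were above all 5 vehicle arrays, and 0.763% of all probe sets were separate in this direction. Groups were separate in either direction at 1.24%, 2.32% and 2.96% of all probe sets at 0.1, 15 and 50 mg/kg. The difference was 0.27 (SE 0.10, interval 0.05 to 0.48) with a limma adjusted p of 0.62. At 0.1 mg/kg 3 arrays were over 5 in muscle signal and 1 in pancreas signal, against 1 and 0 in vehicle. The difference was 0.17 with the skeletal muscle, exocrine pancreas and erythroid list means as covariates. It was 0.205 without the arrays over 5, which leaves 1 array at this dose. The same probe set gave 0.19 (adjusted p = 0.439) at 50 mg/kg and 0.05 (adjusted p = 0.888) at 15 mg/kg. The groups overlapped at the second Col5a1 probe set, whose estimates were 0.27 at 0.1 mg/kg and 0.03 at 50 mg/kg.

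The cytoskeletal genes and Sparc showed smaller differences between group means or wider intervals. Acta2, whose protein marks activated stellate cells, had group means of 6.80 ± 0.17, 6.69 ± 0.16, 6.80 ± 0.14 and 6.76 ± 0.30 in vehicle, 0.1, 15 and 50 mg/kg (SD, n = 5 each). Its estimate at 50 mg/kg was -0.04, with a 95% interval of -0.30 to 0.22 and an adjusted p of 0.93. Desmin (Des) averaged 6.80 ± 1.00, 7.24 ± 1.31, 6.63 ± 1.29 and 6.58 ± 0.51 in the same order, and its interval at 50 mg/kg, -1.50 to 1.06, was the widest of the 14. Sparc, the collagen chaperone osteonectin, gave 0.09 and 0.04 at its 2 probe sets at 50 mg/kg (adjusted p of 0.82 and 0.969). These 2 Sparc probe sets did not vary alike (r = 0.02), so no single Sparc pattern can be read.

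**Figure D1:**
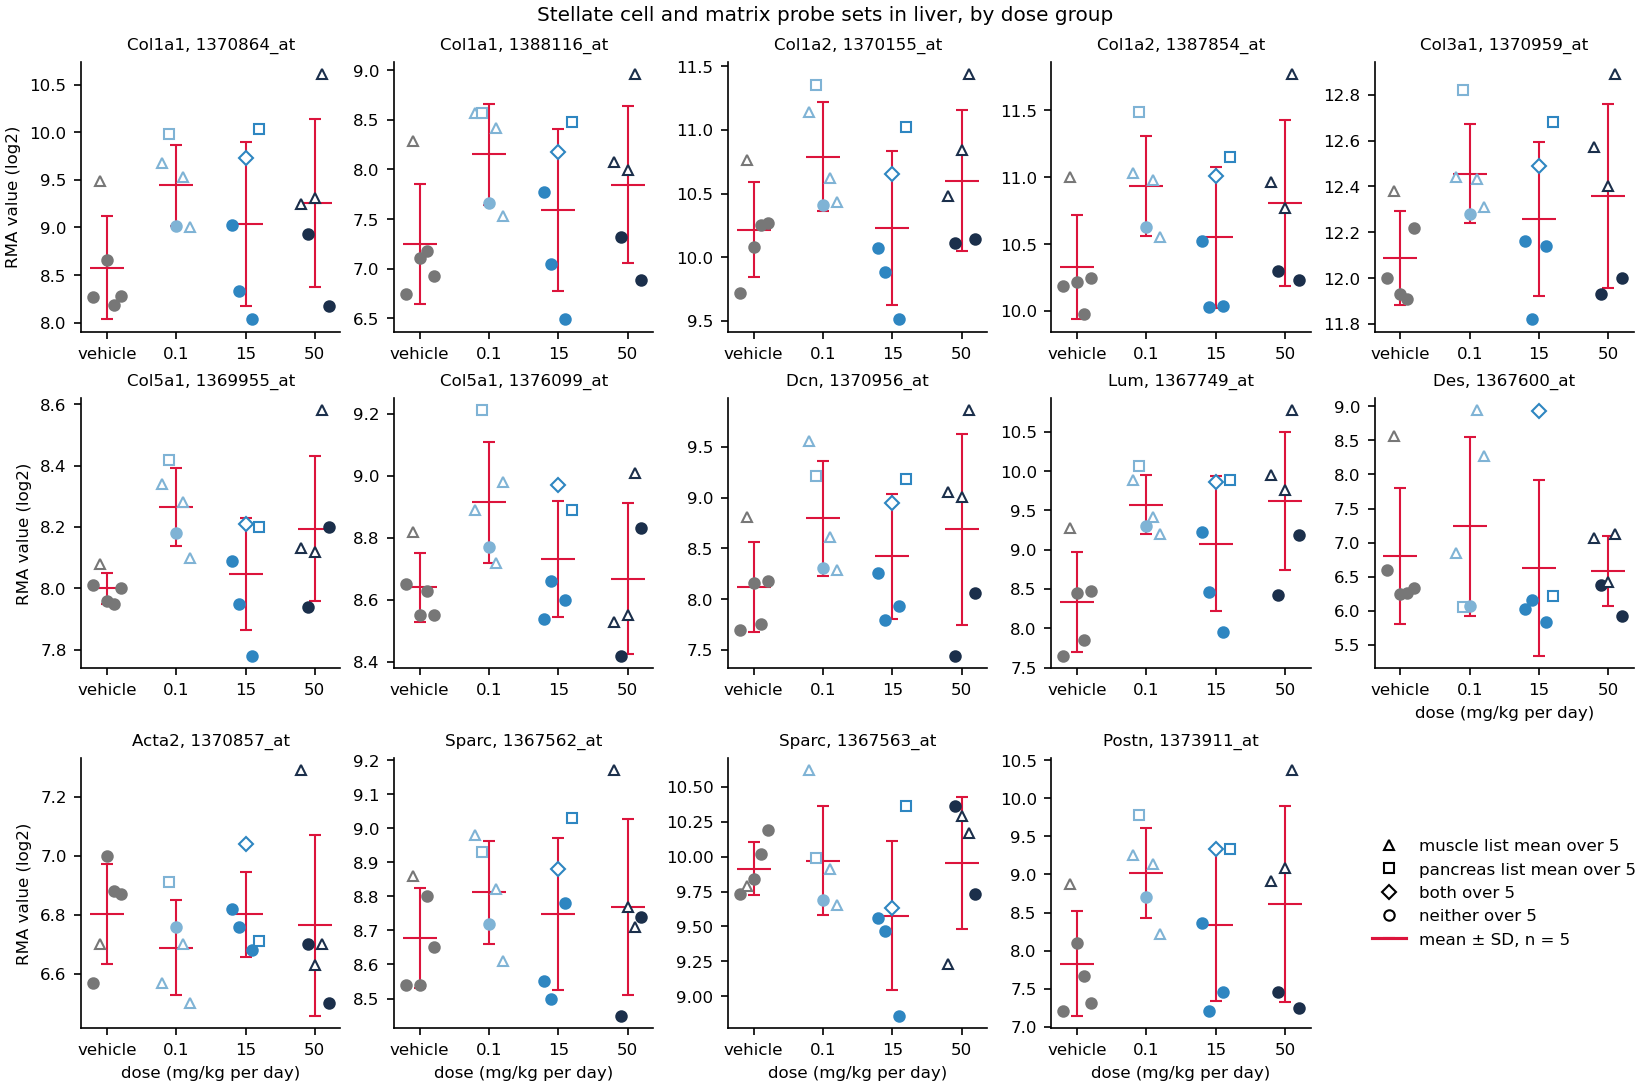
Log2 RMA value of each of the 14 probe sets (vertical axes, which differ between panels) in vehicle, 0.1, 15 and 50 mg/kg per day (horizontal axes), 1 symbol per array, with the mean and SD of 5 arrays in red. Open symbols are the arrays whose skeletal muscle or pancreas list mean is over 5, and all but 1 array at 0.1 mg/kg are open. In every group the highest array of each collagen, Dcn, Lum and Postn probe set is an open one. At both Col5a1 probe sets a filled array, replicate 5, is second highest at 50 mg/kg (8.20 and 8.83).

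**Figure D2:**
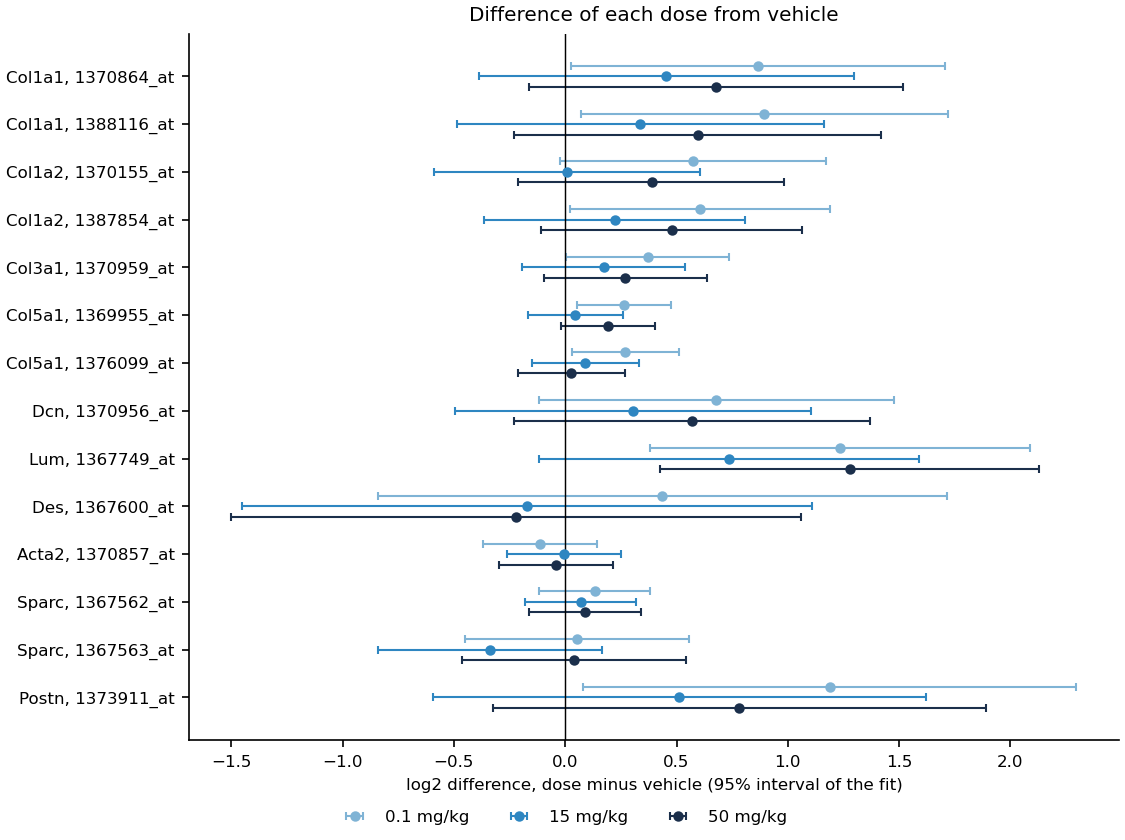
Estimated log2 difference from vehicle (horizontal axis) for each probe set (rows) at 0.1, 15 and 50 mg/kg, with 95% intervals of the limma fit. Most intervals cross 0, those of 8 probe sets at 0.1 mg/kg and of Lum at 50 mg/kg do not, and none of the differences passed adjustment over the array.

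A trend over the dose order, in equal steps over the 4 groups, called 1.45% of all probe sets and 0 of the 14. Lum had the smallest p, with 0.33 log2 units per step (SE 0.13, limma adjusted p = 0.232), and 1 of the 14 was under an unadjusted p of 0.05, against 14.3% of all probe sets. For Lum the group means were 8.34 ± 0.63, 9.57 ± 0.38, 9.07 ± 0.86 and 9.62 ± 0.88 (SD, n = 5 each) in vehicle, 0.1, 15 and 50 mg/kg, so the means did not follow the dose order.

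Variation between arrays was large for most of these genes. From the lowest to the highest array Postn spanned 9.0-fold, Lum 8.68-fold, Des 8.65-fold, Col1a1 5.93-fold and Dcn 5.37-fold, while Col3a1 spanned 2.09-fold, Acta2 1.72-fold and Col5a1 1.74-fold. The SD within groups was 1.08 log2 units for Des, 0.93 for Postn, 0.72 for Lum and 0.71 for Col1a1, against a median of 0.15 and a 95th percentile of 0.37 over the array. Within-group SDs were smaller than that of Des at 99.7% of all probe sets and smaller than that of Postn at 99.6%. Col5a1 and Acta2 were nearer the middle of the array, at 58.4% for Col5a1 1369955_at and 75.9% for Acta2.

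After the group means were removed, the collagens, Dcn, Lum and Postn varied together between arrays. Across the 45 pairs of their 10 probe sets the correlation of these deviations was 0.51 to 0.96, with a median of 0.87 (20 arrays, which share the array's depth and tissue makeup in every gene). Des correlated with these 10 at 0.25 to 0.45 and Acta2 at -0.08 to 0.34. The Sparc probe sets correlated with the 10 at 0.33 to 0.66 and 0.17 to 0.59. Des and Acta2 had an r of 0.09 with each other, so they, like Sparc, stood apart from the block without forming another.

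**Figure D3:**
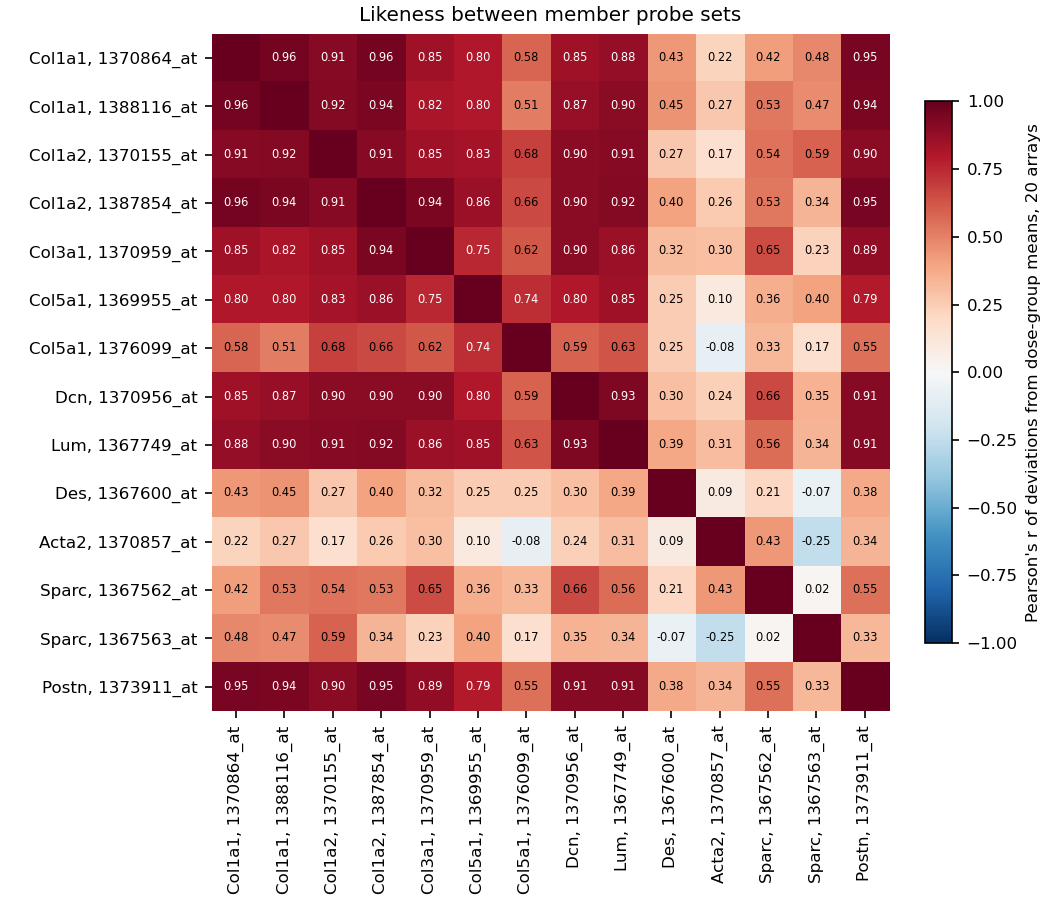
Pearson's r between probe sets (both axes) of their deviations from dose-group means over 20 arrays, on a colour scale of -1 to 1. The collagens, Dcn, Lum and Postn form a block with a median of 0.87, and Des, Acta2 and the 2 Sparc probe sets stand outside it.

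The non-member genes most like the mean of the 10 genes were Mfap4 (r = 0.95), Mfap5 (0.94), Aspn (0.94), Cthrc1 (0.93), Loxl1 (0.93), Fndc1 (0.92), Ccl21 (0.91), Col5a2 (0.90), Aoc3 (0.90) and Col12a1 (0.90), out of 14207 genes compared over 20 arrays. Mfap4 and Mfap5 are proteins of the microfibrils of elastic tissue, asporin (Aspn) is a small proteoglycan related to decorin, and Loxl1 crosslinks elastin and collagen. Without the 2 arrays farthest from the median, r was 0.84 to 0.93 for these 10. Over the 10 arrays with neither signal over 5 it was 0.83 for Aspn and Col5a2, 0.75 for Mfap4 and 0.44 for Ccl21 and Aoc3.

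A list of other stellate cell markers did not follow this pattern in its mean. The mean of 21 other stellate genes, among them Lrat, the enzyme that esterifies retinol for storage, and Colec11, a collectin, spanned 0.33 log2 units from the lowest to the highest of the 20 arrays, against 1.57 for the mean of the 10 genes. Its deviations had an r of 0.06 with those of the 10 genes. The other matrix components (44 measured) had an r of 0.97, portal fibroblast markers (9 measured) 0.92, matrix processing genes (25 measured) 0.75 and smooth muscle markers (12 measured) 0.74. Lists of tissues outside the liver followed too, tendon at 0.68, skeletal muscle at 0.61 and exocrine pancreas at 0.53. TGF-beta and PDGF signalling had 0.53, cholangiocyte markers 0.48 and liver endothelium 0.40. The adipocyte, mesothelium, Kupffer cell, erythroid and hepatocyte lists lay between -0.02 and 0.18. These portal fibroblast and matrix lists share Mfap4, Fbln2 and Eln. Single markers differed from the list mean: Rgs5 was called against muscle signal, as given with the related lists, and Vim, an intermediate filament of mesenchymal cells, had a pancreas slope of 0.17 (SE 0.04, limma adjusted p = 0.501). The mean of the stellate list does not bear out the name stellate cell genes for this variation, and the 10 are called matrix and cytoskeletal genes here.

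The second question was how these transcripts relate to muscle on the same array. With the dose groups in the model, Des rose with skeletal muscle by 0.75 log2 units per log2 unit of the muscle list mean (SE 0.04, 95% interval 0.66 to 0.83, limma adjusted p = 6.93e-11), although Des is not on that list. It was the 1 of 14 called, while 1.09% of all probe sets were called. The log2 values of Des were 6.60, 8.57, 6.25, 6.26 and 6.33 in vehicle, 6.85, 6.06, 6.07, 8.94 and 8.27 at 0.1 mg/kg, 6.02, 6.16, 8.93, 5.83 and 6.22 at 15 mg/kg, and 7.07, 6.38, 6.42, 7.12 and 5.92 at 50 mg/kg. The 4 arrays over 8 were the 4 with a muscle list mean over 7, and both arrays over 5 in pancreas signal but not in muscle signal were low, at 6.06 and 6.22. The call held in all 37 alternative fits, with slopes of 0.40 to 0.77 and adjusted p of 8.89e-12 to 0.0186. The lowest slope came with a mean of 4 index genes in place of the list. On the arrays within 2 log2 units of the lowest muscle signal it was 0.51.

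The matrix block was not called against muscle. Slopes were 0.23 for Col1a1 (SE 0.10, interval 0.01 to 0.44, adjusted p = 0.808), 0.23 for Lum (SE 0.10, adjusted p = 0.807), 0.29 for Postn (SE 0.14, adjusted p = 0.826) and 0.20 for Dcn (SE 0.10, adjusted p = 0.888). Acta2 had a slope of 0.01 (interval -0.07 to 0.08, adjusted p = 1). Of the 14 probe sets 13 had a positive slope and 6 an unadjusted p under 0.05, against 5.97% of all probe sets, and the median slope was 0.14, against -0.004 over the array. Most of the 14 varied together, so these counts are not of independent probe sets. With all 20 arrays the intervals of Col1a1, Lum, Postn and Acta2 lay below that of Des. This order did not hold without the 4 arrays more than 2 log2 units above the lowest muscle signal, where the slopes were 0.58 for Col1a1, 0.66 for Lum, 0.88 for Postn and 0.87 for Dcn, against 0.51 for Des and 0.03 for Acta2. Des was again the one called there, and among the other 13 probe sets Dcn had the smallest adjusted p, at 0.11.

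**Figure D4:**
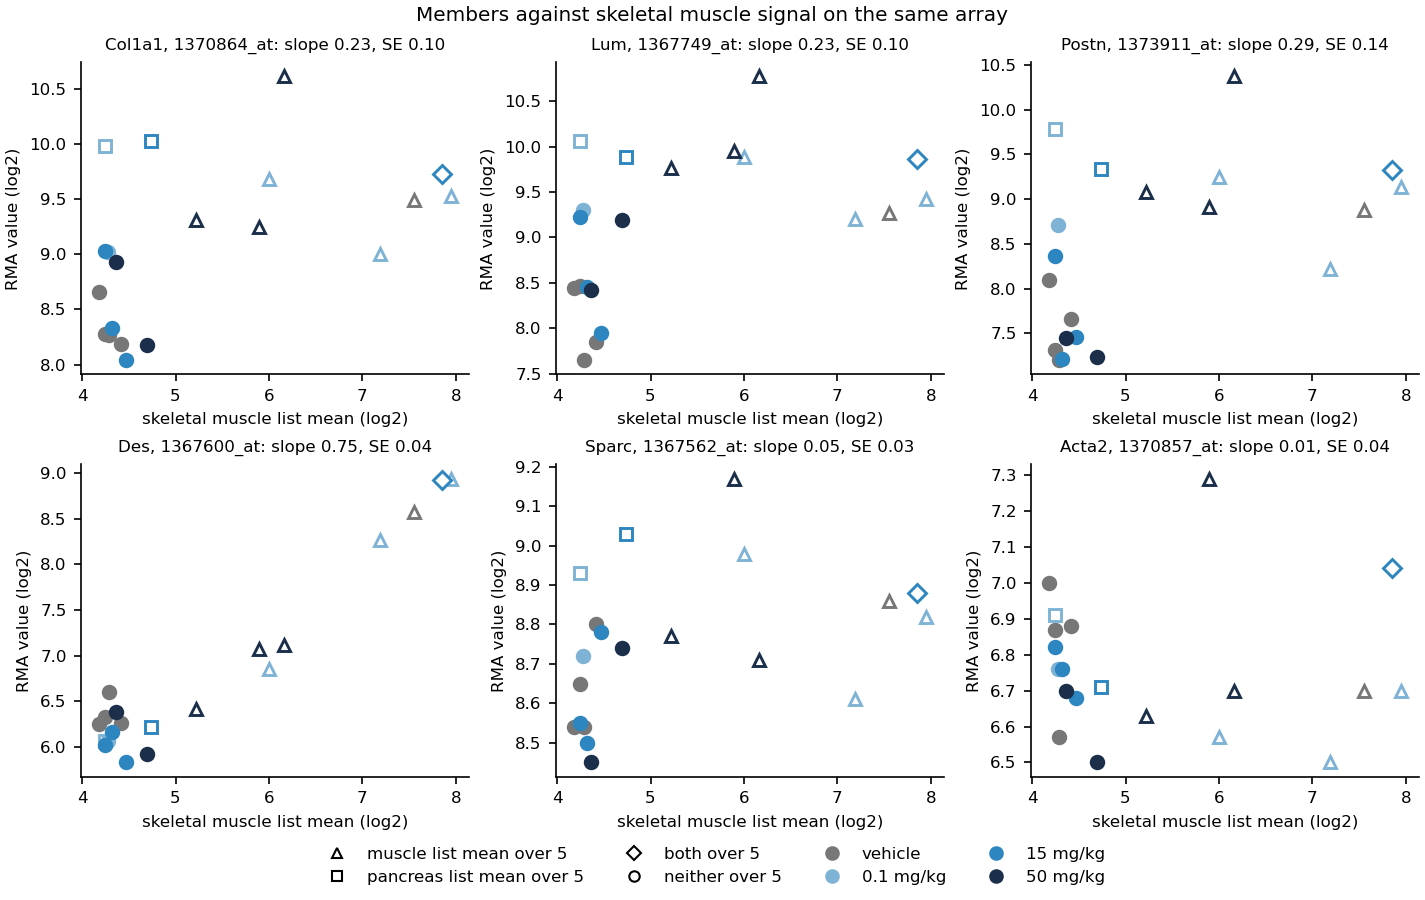
Log2 RMA value of 6 probe sets (vertical axes) against the mean log2 value of 39 skeletal muscle genes on the same array (horizontal axes), colour for dose group and shape for which list mean is over 5. Des climbs along the muscle axis with a slope of 0.75, while Col1a1, Lum and Postn are also high on the arrays over 5 in pancreas signal but not in muscle signal (squares) and Acta2 shows no slope.

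High matrix values also came on arrays of low muscle signal. On the 2 arrays over 5 in pancreas signal but not in muscle signal Col1a1 read 9.98 and 10.03, Lum 10.06 and 9.89, Postn 9.78 and 9.34 and Col3a1 12.82 and 12.68. The first of them, replicate 2 at 0.1 mg/kg, had a muscle list mean of 4.25 and Acta1 at 3.33. The second, replicate 5 at 15 mg/kg, had 4.74 and Acta1 at 6.87, so it carried some muscle signal, as did replicate 5 at 50 mg/kg (4.69 and 6.91). On the other 9 arrays with neither signal over 5, Acta1 lay at 4.70 or below. Col3a1 lay between 12.31 and 12.89 on the 10 arrays with muscle or pancreas signal over 5 and between 11.82 and 12.28 on the other 10, with no overlap. Col1a2 was likewise separate at 1370155_at, at 10.43 to 11.44 against 9.51 to 10.41. The ranges of all other member probe sets overlapped. The share of all probe sets that are separate on this split was not counted, so the separation cannot be called unusual. Col1a1 reached 9.0 to 10.61 on the arrays with either signal and 8.04 to 9.03 on those with neither, and Postn 8.22 to 10.37 and 7.20 to 8.71. The medians of the 10 arrays differed by 1.73 log2 units for Postn, 1.42 for Lum, 1.30 for Col1a1 and 1.04 for Dcn, and by -0.06 for Acta2. These arrays were told apart by their own signals after the data were seen, they are not groups of the study, and no test was made between them.

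A slope on the pancreas list mean, with dose groups and muscle in the model, was added after the data were seen. It called 0 of the 14 (0.0548% of all probe sets), with 11 of 14 under an unadjusted p of 0.05 (4.14% of all probe sets) and all 14 slopes above 0 (median 0.27, against -0.001 over the array). Col1a1 had a slope of 0.46 (SE 0.15, interval 0.15 to 0.77), Postn 0.56 (SE 0.20), Lum 0.43 (SE 0.16) and Des 0.05 (SE 0.07), and the smallest adjusted p of the 14 was 0.962. The pancreas signal rests on 3 arrays, and most of the 14 probe sets varied together, so their slopes are not independent. The part of muscle or pancreas tissue in the matrix values was not tested.

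**Figure D5:**
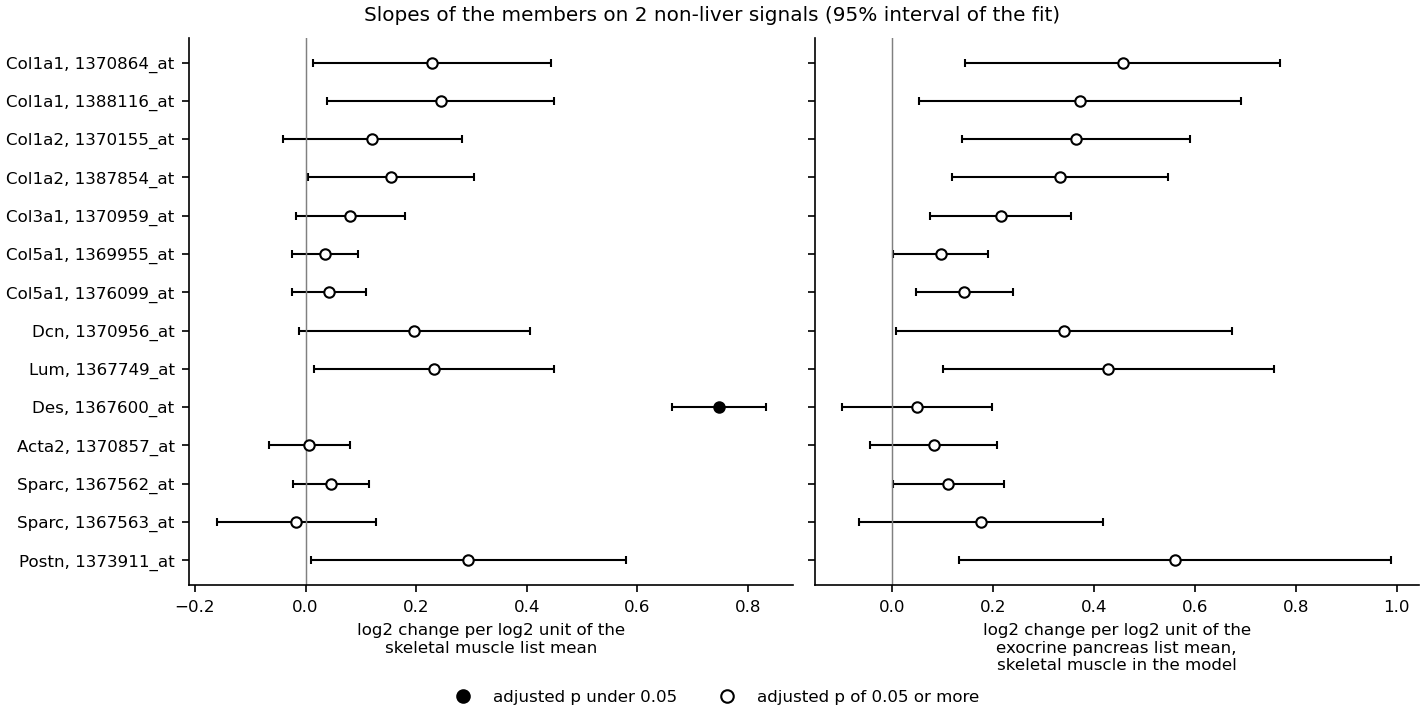
Log2 change of each probe set (rows) per log2 unit of the skeletal muscle list mean (left) and of the exocrine pancreas list mean (right), with 95% intervals of the limma fit, filled where the adjusted p is under 0.05. Des is called on muscle at 0.75 and is at 0.05 on pancreas. Acta2 is at 0.01 on muscle and 0.08 on pancreas, with intervals that cross 0 in both panels.

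With the muscle list mean as a covariate, the dose comparisons again called 0 of the 14, beside 0.809%, 0.122% and 0% of all probe sets at 50, 15 and 0.1 mg/kg. Des then had a far narrower interval, -0.77 to -0.17 at 50 mg/kg around an estimate of -0.47 (unadjusted p = 0.00426, adjusted p = 0.15), with -0.31 at 15 mg/kg and -0.31 at 0.1 mg/kg. Lum had 1.20 (SE 0.37, adjusted p = 0.151) at 50 mg/kg. At 0.1 mg/kg the estimates of the collagens, Dcn, Lum and Postn were smaller with the covariate. Col1a1 1370864_at went from 0.87 to 0.64, Postn from 1.19 to 0.90 and Lum from 1.24 to 1.00. Of the intervals above 0 at this dose without the covariate, only those of Lum and Col5a1 1369955_at stayed above 0 with it. The cause of this change was not tested. The Des estimate at 0.1 mg/kg was 0.44 without the covariate, so its sign depends on the muscle term. The covariate sets 1 straight slope for all arrays, 0.75 for Des, and the narrow Des interval and its p hold only under it. On the arrays within 2 log2 units of the lowest muscle signal the Des slope was 0.51. Without arrays over 2 log2 units above the lowest in muscle or pancreas, Des at 50 mg/kg was 0.22. Whether a curved relation gives the negative Des estimates was not tested.

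Related pathways were read from lists of other genes. None of the 21 stellate markers, 44 matrix components, 25 matrix processing genes, 16 genes of TGF-beta and PDGF signalling, 12 smooth muscle markers or 9 portal fibroblast markers was called at any dose. The smallest p at 50 mg/kg among stellate markers were those of Steap4 (-0.51, adjusted p = 0.0682), a metalloreductase, Colec11 (-0.23, adjusted p = 0.294), a collectin, Lrat (-0.30, adjusted p = 0.412) and Cygb (-0.14, adjusted p = 0.517), a globin of stellate cells. The stellate estimates had a median of -0.06 with 4 of 21 above 0, against 0.37 with 8 of 10 above 0 for the genes described here, taking 1 probe set a gene. At 0.1 mg/kg both medians were above 0, with a stellate median of 0.05 and 15 of 21 above 0, against 0.52 and 9 of 10. Among matrix components the smallest p were those of Col18a1 (-0.39, adjusted p = 0.0861), a basement membrane collagen, Fn1 (-0.21, adjusted p = 0.107), fibronectin, which hepatocytes also make, Prelp (-0.22, adjusted p = 0.176) and Tnc (0.64, adjusted p = 0.205), tenascin C. In matrix processing Plod1 had -0.23 (adjusted p = 0.238), P3h1 0.19 (adjusted p = 0.435), P4ha3 0.26 (adjusted p = 0.509) and Bmp1 -0.12 (adjusted p = 0.578). For signalling Pdgfa had 0.33 (adjusted p = 0.204), Pdgfc 0.22 (adjusted p = 0.306), Tgfbr3 0.19 (adjusted p = 0.529) and Smad4 -0.11 (adjusted p = 0.574).

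Against muscle signal 1 of 21 stellate markers, 1 of 44 matrix components and 1 of 25 matrix processing genes were called. So were 1 of 12 smooth muscle markers and 1 of 5 tendon genes, but 0 of 16 signalling genes and 0 of 9 portal fibroblast markers. Over the array 1.09% of probe sets were called. The called genes are named after their values were seen. Rgs5, a pericyte signalling regulator, rose by 0.22 log2 units per unit of muscle signal (adjusted p = 0.000488), Col15a1, a collagen of muscle and vessel basement membranes, by 0.31 (adjusted p = 0.000645) and Fap, a fibroblast surface protease, by 0.13 (adjusted p = 0.0394). Synpo2, an actin-binding protein of smooth and striated muscle, rose by 0.89 (adjusted p = 1.04e-10) and Scx, a tendon transcription factor, by 0.19 (adjusted p = 5.56e-05). In the skeletal muscle list, from which the signal was formed, 34 of 39 were called, as its construction implies.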

How the data were processed

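Liver RNA was amplified from 100 ng and hybridised to Affymetrix rat genome arrays, per the labels' protocols. The deposited log2 values, 31099 probe sets for each of 20 arrays, were made by the authors with RMA, per the submitters' processing notes. The RMA version is not given in the sources used here, nor whether the arrays were summarized jointly. RMA equalizes intensity distributions and compresses low and very bright values, so folds are understated there, and levels of different probe sets cannot be compared. Groups and replicate numbers came from the sample titles. No 2 arrays held identical values.

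After removal of 57 control probe sets, 31042 remained, and no filter on intensity was set, so all 14 entered. Gene names are GEO's platform annotation, and the RefSeq gene table of GRCr8 held the gene IDs of all 14. Probe sets with several symbols, such as 5 for Acta2 and Actc1, were not members. The main model had 1 mean per group (limma 3.58.1, lmFit and eBayes, under R 4.3.3), with two-sided tests, Benjamini-Hochberg adjustment per contrast and a call under 0.05. The series' design text names R/maanova for the dose comparisons, and limma was run in its place. A slope model added each array's skeletal muscle list mean. Genes outside the members were read at the brightest probe set naming them alone. Named genes were all members, per list up to 4 genes with the lowest p at the highest dose, the muscle index genes (4 measured) and the 10 genes with the highest correlation with the members. Rgs5, Vim, Col15a1, Fap and Synpo2 fall outside this rule and were chosen after their values were seen. The members and lists were chosen with earlier results of these data known. The code was tested on simulated data. Python 3.11.15 with matplotlib 3.10.9 drew the figures.

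Alternatives were blocks (replicate number, or first digit of the array's description number), fits on the compared groups alone, equal array medians or a further quantile step, minimum means of 6 and 5, unshrunken variances, an intensity trend in the variance, array weights, 1 probe set per gene, joint adjustment, tissue and actin covariates, arrays left out by muscle or pancreas signal, and each array left out. The threshold of 5, the pancreas slope and the pancreas covariate were added after the data were seen.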

Additional observations from a re-analysis of the deposited data

Results flagged for a closer look

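Of 56 groups of 5 arrays (14 probe sets, 4 dose groups), 5 held 1 array whose gap to its nearest neighbour was more than 0.71 of the group's range, Dixon's 95% critical value for 5 samples, which chance gives in about 1 of 20 groups. Vehicle replicate 2 stood apart at 3 probe sets: Col1a1 1388116_at at 8.29, Col1a2 1387854_at at 11.00 and Des at 8.57. That array had a muscle list mean of 7.55, against 4.18 to 4.42 on the other vehicle arrays.

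Des stood apart also on replicate 3 at 15 mg/kg, at 8.93, where the muscle list mean was 7.85. Acta2 stood apart on replicate 1 at 50 mg/kg, at 7.29, where Myh11, smooth muscle myosin, was at 8.16, against 5.11 to 7.02 on the other 19 arrays. The part of these signals in the values was not tested.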

How the results depend on the processing

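The counts of the 14 probe sets kept their value under every alternative run: 0 at each dose, in the trend and on pancreas signal, and 1 (Des) on muscle signal, also in all 20 fits that left out 1 array. Over single probe sets, 498 of 514 alternative values kept direction and side of the threshold at 50 mg/kg, 479 of 514 at 15 mg/kg, 508 of 514 at 0.1 mg/kg and 507 of 514 on muscle. Expression showed no pairing by replicate number, which cannot settle whether the design had one. Between groups, deviations of same-numbered arrays correlated at -0.362 to 0.288 (median 0.00119, 10 of 30 pairs over 0.1). Those of arrays with different numbers correlated at -0.416 to 0.525 (median -0.00362). Of 20 arrays, 4 correlated best with an array of their own number. A fit with the replicate block called 235, 36, 0 and 406 probe sets of the array at 50, 15 and 0.1 mg/kg and in the trend, 311 on muscle and 14 on pancreas, and changed none of the 14.

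Counts over the array moved more, and the cause was not tested. At 50 mg/kg (290) they were 89 with only the 2 groups, 146 with joint adjustment, 111 without arrays over 2 log2 units above the lowest in muscle or pancreas, 193 with the actin covariate and 3 without arrays over 5. At 15 mg/kg (36) they were 11 with only the 2 groups, 22 with 3 tissue covariates, 4 without arrays over 2 units and 3 without arrays over 5, at 0.1 mg/kg (0) 5 with joint adjustment, and in the trend (449) 169 and 5 in those last 2 fits. Muscle slopes (337) numbered 57 and 140 with filters at 6 and 5, 220 with 1 probe set per gene, 74 on arrays within 2 units of the lowest and 222 without the 2 farthest arrays. Pancreas slopes (17) numbered 1 and 3 with the filters. Leaving out 1 array gave 106 to 276 at 50 mg/kg, 14 to 44 at 15 mg/kg, 0 to 1 at 0.1 mg/kg, 232 to 487 in the trend, 276 to 346 on muscle and 15 to 18 on pancreas. The 50 mg/kg count moved by over 1.5 times without vehicle replicates 2 (180), 3 (177) or 4 (137) or 50 mg/kg replicates 3 (181), 4 (106) or 5 (152). The 15 mg/kg count did without vehicle replicates 3 (20), 4 (22) or 5 (23) or 15 mg/kg replicates 4 (16) or 5 (14), the 0.1 mg/kg count without vehicle replicate 4 or 0.1 mg/kg replicate 3 (1 each) and the trend without vehicle replicate 4 (282) or 50 mg/kg replicates 4 (232) or 5 (284).

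Signs turned only for values that were not called. With 3 tissue covariates the 15 mg/kg estimates became -0.030 and -0.092 for Col1a1, -0.40 and -0.16 for Col1a2, -0.084 for Col3a1 and -0.069 and -0.070 for Col5a1. They became -0.15 for Dcn, -0.093 for Sparc 1367562_at and -0.11 for Postn. In the same fit Col5a1 1376099_at became -0.008 at 50 mg/kg, and at 0.1 mg/kg Des became -0.29 and Sparc 1367563_at -0.025. Without arrays over 5 the estimates became -0.052 for Col3a1, -0.19 for Dcn, -0.036 for Sparc 1367562_at and -0.22 for Postn at 50 mg/kg. At 15 mg/kg they became -0.26 for Col1a2 1370155_at, -0.039 for Col5a1 1369955_at and -0.023 for Sparc 1367562_at. The other Col1a2 and Col5a1 probe sets stayed above 0 there, at 0.035 and 0.002. At 0.1 mg/kg the estimates became -0.29 for Des and -0.26 for Sparc 1367563_at. Without arrays over 2 units Des was 0.22 at 50 mg/kg, and at 15 mg/kg Col1a2 1370155_at was -0.26, Col5a1 1369955_at -0.039 and Sparc 1367562_at -0.023. Col1a2 1370155_at at 15 mg/kg was -0.029 with the description digit as a block, -0.086 with array weights, -0.014 with the muscle covariate and -0.010 with the actin covariate. Des at 0.1 mg/kg was -0.31 with the muscle covariate. Acta2 at 15 mg/kg was 0.042 with another quantile step and 0.001 with array weights, and its muscle slope was -0.001 with array weights, -0.038 without the 2 farthest arrays and -0.004 without dose groups. The Sparc 1367563_at muscle slope was 0.14 on arrays of low muscle signal.

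Leaving out 1 array moved some estimates across 0. At 50 mg/kg Col5a1 1376099_at ran from -0.059 to 0.089, Des from -0.36 to 0.22, Acta2 from -0.17 to 0.025 and the Sparc sets from -0.010 to 0.17 and -0.061 to 0.22. At 15 mg/kg Col1a2 1370155_at ran from -0.19 to 0.19, Des from -0.75 to 0.27, Acta2 from -0.063 to 0.045 and Sparc 1367562_at from 0 to 0.13. At 0.1 mg/kg Sparc 1367563_at ran from -0.11 to 0.13. Muscle slopes ran from -0.027 to 0.024 for Acta2 and -0.040 to 0.001 for Sparc 1367563_at, and the Des pancreas slope from -0.008 to 0.094. The fit without arrays over 5 keeps 1 array at 0.1 mg/kg, and values near the lower end of the intensity scale limit what a difference there can show.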

Other observations

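Probe sets that carry both Acta2 and Actc1, the smooth muscle and cardiac actins, gave another picture than the single-symbol Acta2 probe set. Of 5 such probe sets, 3 were called on muscle signal, beside 1.09% of all probe sets. The brightest of them, 1370856_at, ran from 4.69 to 9.37 over the arrays with a slope of 1.12 (SE 0.11, limma adjusted p = 9.24e-07), and 1374352_at and 1374353_x_at had slopes of 0.43 and 0.50. Which of the actins they measure was not tested, and none was called at 50 mg/kg.

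Tnmd, a tendon marker, was highest on replicate 4 at 50 mg/kg, at 6.55. That array also held the highest Col1a1, Lum, Postn, Dcn and Col3a1, while its muscle list mean, 6.16, was below those of 4 other arrays. Scx, another gene of the tendon list, was at 5.29 there, below 5 other arrays that reached 5.38 to 6.06. Values of Tnmd between 5.67 and 5.83 were on replicates 1 and 4 at 0.1 mg/kg and on vehicle replicate 2, and the other arrays lay at 4.51 or below.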
